A study of Mus musculus with 3 samples.

Results

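Yap1, Wwtr1, Tead1, Tead2, Tead3, Tead4 and Vgll4 were followed through the cells of the embryonic mouse stomach as the transcriptional end of the Hippo pathway. The 7 genes were taken by symbol from the lists of measured genes, and each of them had a row in all 3 libraries, which together listed 46675 genes. Single cells came from the hindstomach (the glandular stomach) of mouse embryos at E18.5, after dissociation with trypsin and DNase I and lysis of red cells. A DNBelab C Series droplet kit was used, in which the 3′ end of each RNA receives the code of its cell and a random molecular tag, so that a unique molecular identifier (UMI) stands for 1 captured RNA. The first genotype carried Shh-Cre with YAP5SA, a YAP mutant that the Hippo kinases can no longer phosphorylate at its inhibitory sites and that therefore stays active. The second carried Shh-Cre with both Yap alleles flanked by loxP sites, called Yap knockout here, and the control carried Shh-Cre alone. All 3 groups therefore carried the Cre, which is driven by Shh, a gene of the gut epithelium. Each genotype was 1 library, and the sources used here do not give the number of embryos behind a library. Without replicates no test was made, and every interval is an exact 95% interval of counting error only.

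The Hippo pathway is a kinase cascade that ends on YAP (Yap1) and its paralogue TAZ (Wwtr1), coactivators that cannot bind DNA themselves. When the kinases are quiet, YAP and TAZ enter the nucleus and switch on genes through the TEAD transcription factors (Tead1 to Tead4), which hold the DNA. VGLL4 (Vgll4) binds the TEAD factors at an overlapping surface and holds their activity down. In the fetal gut the pathway is known for setting growth and differentiation of both the epithelium and the mesenchyme, where YAP and TAZ hold back smooth muscle differentiation.

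The promoters of these genes are shown because several of the 7 differed together between libraries and because the TEAD core motif could be searched in them. RefSeq windows of 300 bases (250 before and 50 after a transcription start, GRCm38.p6) were at hand for 5 of the 7 genes, and those of Tead1 and Tead4 were not used here. GGAATG, the core of the TEAD motif, was searched on both strands (its complement is CATTCC), and 14.7% of all 32851 windows held it. At least 1 match lay in a window of Yap1, Wwtr1, Tead3 and Vgll4, and none lay in that of Tead2. Of all 27025 gene symbols, 16.6% had a match in any of their windows. Tead3 had 3 matches within a single window, a number reached by 0.131% of all windows. That window had the most matches of the 3 windows of Tead3. The windows follow 5′ to 3′ on the gene's strand, with each match in capitals, for Yap1 (chr9:8004547-8004846, minus strand), the first of the Wwtr1 windows (chr3:57575861-57576160, minus strand), Tead2 (chr7:45215542-45215841, plus strand), the Tead3 window with 3 matches (chr17:28350551-28350850, minus strand) and Vgll4 (chr6:114969154-114969453, minus strand).
Yap1: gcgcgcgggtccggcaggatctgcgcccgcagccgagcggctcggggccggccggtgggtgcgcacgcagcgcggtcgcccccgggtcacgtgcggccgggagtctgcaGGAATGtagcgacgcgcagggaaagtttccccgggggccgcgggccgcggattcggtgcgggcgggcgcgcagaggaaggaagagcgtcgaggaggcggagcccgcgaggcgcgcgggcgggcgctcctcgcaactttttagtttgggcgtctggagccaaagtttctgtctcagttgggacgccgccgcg
Wwtr1: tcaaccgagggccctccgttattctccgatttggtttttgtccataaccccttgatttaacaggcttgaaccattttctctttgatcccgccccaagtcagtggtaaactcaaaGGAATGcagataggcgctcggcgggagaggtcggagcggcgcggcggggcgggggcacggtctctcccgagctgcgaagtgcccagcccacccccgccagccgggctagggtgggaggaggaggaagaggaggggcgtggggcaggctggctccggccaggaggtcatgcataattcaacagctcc
Tead2: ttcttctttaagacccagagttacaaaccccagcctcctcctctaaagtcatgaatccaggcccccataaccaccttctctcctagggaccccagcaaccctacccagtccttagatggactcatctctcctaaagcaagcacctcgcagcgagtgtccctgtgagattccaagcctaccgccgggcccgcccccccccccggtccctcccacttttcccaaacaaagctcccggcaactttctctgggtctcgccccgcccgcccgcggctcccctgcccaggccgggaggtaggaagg
Tead3: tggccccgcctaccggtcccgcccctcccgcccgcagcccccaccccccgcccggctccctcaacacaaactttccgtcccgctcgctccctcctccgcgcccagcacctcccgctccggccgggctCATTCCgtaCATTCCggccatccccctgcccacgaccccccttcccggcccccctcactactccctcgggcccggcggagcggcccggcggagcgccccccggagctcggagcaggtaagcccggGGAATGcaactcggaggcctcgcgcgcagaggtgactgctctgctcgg
Vgll4: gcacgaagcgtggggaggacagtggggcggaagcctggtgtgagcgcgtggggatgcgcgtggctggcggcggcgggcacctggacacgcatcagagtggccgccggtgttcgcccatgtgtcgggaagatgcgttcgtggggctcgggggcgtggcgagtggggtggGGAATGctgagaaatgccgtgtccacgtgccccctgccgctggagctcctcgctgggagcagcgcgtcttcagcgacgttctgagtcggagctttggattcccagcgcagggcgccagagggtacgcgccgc
A match describes the letters in the window and not a site in use.

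After filtering, 8518 YAP5SA, 4890 Yap knockout and 6959 control cells were kept, at a median of 5224.5, 4979.5 and 4900 UMIs per cell, each library named in that order. Cells were sorted into 15 classes by marker genes, and 9 classes held at least 50 cells in every library. The epithelial-like class held 1656 YAP5SA, 836 Yap knockout and 530 control cells, and all 10 of its broad markers stood at least 2-fold above the other cells in each library. These markers were also used to choose the cells, so their level is not an independent check of the class. Levels are given as CPM, the UMIs of a gene per 1000000 UMIs summed over the cells of a class. Because only 3′ ends are tagged, CPM was not scaled by length. The epithelial-like cells of the libraries were not the same kind of cell: 1418 of those in the YAP5SA library fell into a single cluster led by Ankrd1, Cldn6, Wfdc2 and Msln, which held 2 control and 0 Yap knockout epithelial-like cells. Free RNA differed as well. In macrophage-like cells, which should make little of either, Col1a1 stood at 2039 CPM in YAP5SA, 456 CPM in Yap knockout and 4358 CPM in control. The gastric pepsinogen Pga5 stood there at 18.3 CPM in YAP5SA, 608.6 CPM in Yap knockout and 491.2 CPM in control. Cell names were shared between libraries (1528 between YAP5SA and Yap knockout, 2409 between YAP5SA and control, 1388 between Yap knockout and control). Pairs of kept cells with a shared name fell in the same class about as often as pairs of names shifted by 1 place, at 19.8% and 20.5% between YAP5SA and control.

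In YAP5SA epithelium the paralogue Wwtr1 and the factors Tead2 and Tead4 were each more than 2-fold above control, while Yap1 itself stood near its control level. Of the 7 genes, 3 were at least 2-fold higher and 0 were at least 2-fold lower, and all 7 ratios lay above 1. Of 21497 genes with at least 10 UMIs over the same cells, 16.3% were at least 2-fold higher and 13.3% at least 2-fold lower in YAP5SA. The median log2 ratio of the 7 was 0.83, beside 0.01 over all genes measured. In Yap knockout epithelium Yap1 was at least 2-fold lower, and it was the only one of the 7 past 2-fold on the class sums. There 7.28% of 18864 genes measured were at least 2-fold lower, and the median log2 ratio was -0.13 for the 7 genes and 0.02 over all genes.

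Yap1, the coactivator that both alleles of the study alter, stood at 54.6 CPM in YAP5SA, 23.0 CPM in Yap knockout and 49.8 CPM in control epithelial-like cells. The Yap knockout library alone was low, at a ratio to control of 0.463 (0.370 to 0.580), and the ratio of YAP5SA to control was 1.10 (0.927 to 1.31). With each cell weighing the same (the mean of per-cell CPM) the Yap knockout ratio was 0.565, and without the cells that held any UMI of a cell-cycle marker it was 0.533, both inside 2-fold, while subtracting the non-epithelial profile made it 0.297. A 3′ tag need not fall in the deleted part of the gene, and the sources used here do not name the exons flanked by loxP, so the UMIs left do not measure how complete the deletion was. Nor do the sources say whether RNA of the YAP5SA allele was counted under Yap1. Part of the remaining signal was seen in cells that should carry little: macrophage-like cells held 19.3 CPM of Yap1 in YAP5SA, 13.4 CPM in Yap knockout and 20.6 CPM in control. In the Yap knockout the epithelial level was 1.72 times (1.16 to 2.63) that of the macrophage-like cells, and in the control it was 2.42 times.

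Wwtr1, which encodes TAZ, stood at 96.0 CPM in YAP5SA, 25.9 CPM in Yap knockout and 39.8 CPM in control epithelial-like cells. YAP5SA was the high library, 2.41-fold (2.01 to 2.91) above control, and Yap knockout lay below control at a ratio of 0.650 (0.516 to 0.822). In the control, however, the epithelial level of Wwtr1 did not exceed that of macrophage-like cells: 39.8 CPM against 45.1 CPM, a ratio of 0.884 (0.664 to 1.18). Its epithelial level in YAP5SA was 2.98 times, and in Yap knockout 1.61 times, that of macrophage-like cells of the same library. Subtracting the non-epithelial profile of each library left 85.4 CPM in YAP5SA and values below 0 in Yap knockout and control (-15.7 and -18.8 CPM), so no corrected ratio can be given for Wwtr1. Yap1 gave 36.3% (34.4 to 38.1) of the Yap1 and Wwtr1 UMIs in YAP5SA epithelium, 47.1% (41.7 to 52.5) in Yap knockout and 55.6% (49.6 to 61.4) in control. The intervals of Yap knockout and control overlap. These shares use uncorrected UMIs. With control Wwtr1 not above the macrophage-like level, they do not settle the make-up of the pair within epithelial cells.

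**Figure D1:**
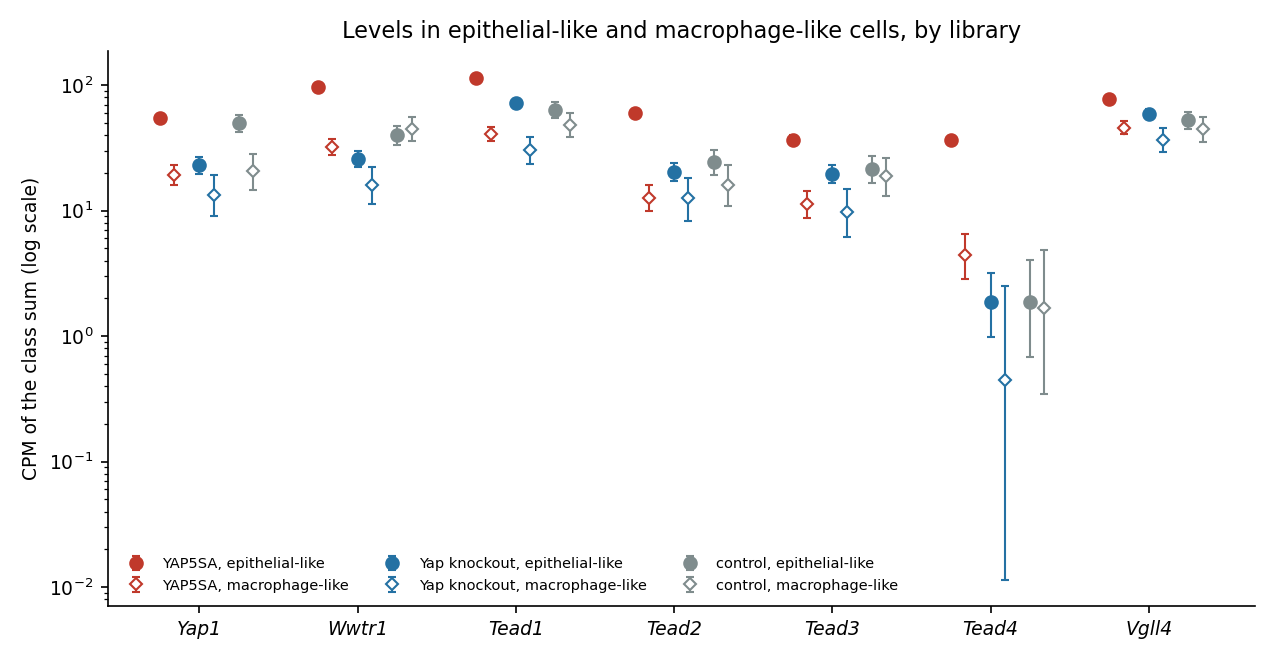
Level of each gene (CPM of the class sum, log scale) in epithelial-like cells (filled circles) and macrophage-like cells (open diamonds) of the YAP5SA, Yap knockout and control libraries, with exact 95% Poisson intervals. Tead4 stands at 36.5 CPM in YAP5SA epithelium and at 1.86 and 1.87 CPM in Yap knockout and control, and Wwtr1 in control epithelium does not exceed the macrophage-like level.

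The TEAD genes differed from one another in how far YAP5SA stood from control. Tead4 made the widest difference. It held 625 UMIs in 1656 YAP5SA epithelial-like cells (36.5 CPM), 13 UMIs in 836 Yap knockout cells (1.86 CPM) and 6 UMIs in 530 control cells (1.87 CPM). YAP5SA was thus 19.6-fold (8.93 to 53.5) above control, and the Yap knockout ratio of 0.997 (0.353 to 3.20) rests on too few UMIs to show a difference of less than about 3-fold in either direction. Macrophage-like cells held 0.446 CPM (1 UMI) in Yap knockout and 1.67 CPM (3 UMIs) in control, and the ratio of epithelial-like to macrophage-like cells was 4.17 (0.626 to 177) in Yap knockout and 1.12 (0.239 to 6.91) in control, so neither could be told from 1 at this depth. Subtracting the non-epithelial profile left only 0.951 CPM in control and took the YAP5SA ratio to 49.4. Leaving out cells with a cell-cycle marker UMI took that ratio to 40.1. Without those cells (487 YAP5SA, 379 Yap knockout and 256 control cells left) the Yap knockout ratio was 2.67. That is past 2-fold but inside the interval of 0.353 to 3.20 of the full class.

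Tead2 stood at 60.4 CPM in YAP5SA, 20.3 CPM in Yap knockout and 24.3 CPM in control epithelial-like cells. It was 2.49-fold (1.98 to 3.18) higher in YAP5SA, and the Yap knockout ratio was 0.837 (0.631 to 1.12). Without the cells that held a cell-cycle marker UMI the YAP5SA ratio was 1.92, inside 2-fold, and after subtraction of the non-epithelial profile the control level fell below 0 (-6.25 CPM). Tead1, the TEAD gene with the most UMIs in every epithelium, stood at 113 CPM in YAP5SA, 71.4 CPM in Yap knockout and 63.5 CPM in control. It was 1.78-fold (1.54 to 2.07) higher in YAP5SA, with a ratio of 1.12 (0.954 to 1.33) in Yap knockout. Tead3 stood at 36.7 CPM in YAP5SA, 19.6 CPM in Yap knockout and 21.5 CPM in control, at a ratio of 1.71 (1.33 to 2.23) in YAP5SA and 0.913 (0.679 to 1.24) in Yap knockout. Tead1 and Tead3 thus stayed inside 2-fold, but subtraction of the non-epithelial profile took their YAP5SA ratios to 3.69 and 4.25. Leaving out cells with a cell-cycle marker UMI took that of Tead3 to 1.18. In Yap knockout the interval of every TEAD gene held 1.

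The sum of the 4 TEAD genes was 247 CPM in YAP5SA epithelium, against 111 CPM in control, and it was 113 CPM in Yap knockout. Its make-up differed along with its size. Tead4 gave 14.8% (13.7 to 15.9) of the TEAD UMIs in YAP5SA, 1.64% (0.878 to 2.79) in Yap knockout and 1.68% (0.619 to 3.62) in control. Tead1 gave 45.8% (44.3 to 47.4) in YAP5SA, 63.1% (59.6 to 66.5) in Yap knockout and 57.1% (51.8 to 62.3) in control. The epithelium of the YAP5SA library therefore held Tead4 and Tead3 in nearly equal parts (14.8% and 14.9%), a mixture seen in neither of the other epithelia. These shares use uncorrected UMIs. In control, Tead1, Tead2, Tead3 and Tead4 gave 57.1%, 21.8%, 19.3% and 1.68% in epithelial-like cells. In control macrophage-like cells they gave 56.9%, 19.0%, 22.2% and 1.96%. With values so close, the shares do not settle the TEAD make-up within control epithelial cells. Among the other large classes, endothelial-like cells had a Tead4 share of 10.2% in YAP5SA, 7.25% in Yap knockout and 9.03% in control. Erythroid-like cells had 8.19% (5.51 to 11.6) and macrophage-like cells 6.37% in YAP5SA, while both stood under 2% in Yap knockout and control.

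**Figure D2:**
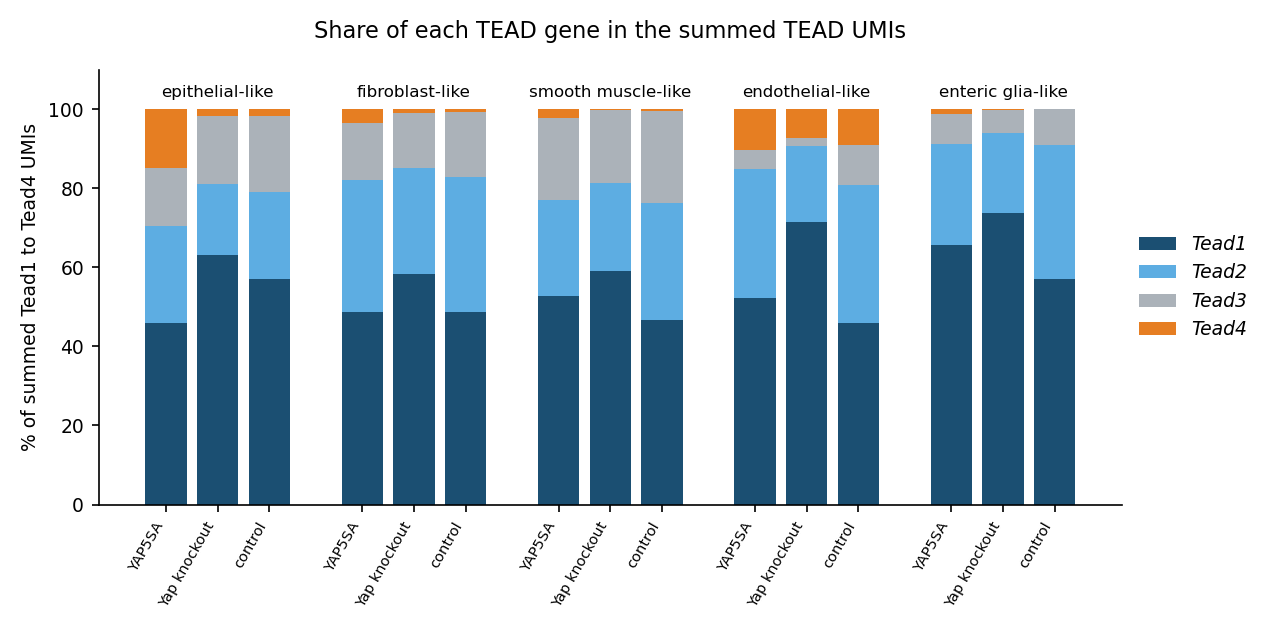
Share of Tead1, Tead2, Tead3 and Tead4 in the summed TEAD UMIs (percent) of 5 marker-gated classes, each in the YAP5SA, Yap knockout and control libraries. Tead4 gives 14.8% in YAP5SA epithelial-like cells, under 2% in the other epithelia, and between 7.25% and 10.2% in endothelial-like cells of every library.

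Vgll4, the TEAD antagonist, stood at 77.7 CPM in YAP5SA, 58.9 CPM in Yap knockout and 52.3 CPM in control epithelial-like cells. YAP5SA was 1.49-fold (1.27 to 1.76) above control and Yap knockout lay at 1.13 (0.940 to 1.36), both inside 2-fold. Vgll4 in macrophage-like cells was 44.5 CPM in control, so the control epithelium was 1.17 times that level. The summed TEAD level thus differed more between YAP5SA and control than the level of their antagonist did.

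The share of epithelial-like cells with a UMI was compared at equal depth, because the median depth of these cells was 6806.5 UMIs in YAP5SA, 4028 in Yap knockout and 3534.5 in control. After each cell was thinned to 1000 UMIs, Tead4 was found in 4.47% (3.52 to 5.58) of YAP5SA cells, 0.359% (0.0741 to 1.05) of Yap knockout cells and 0.189% (0.00478 to 1.05) of control cells. Without thinning the shares were 26.8%, 1.56% and 1.13% of YAP5SA, Yap knockout and control cells. Macrophage-like cells served as background, at median depths of 5796.5, 7499 and 4982.5 UMIs in YAP5SA, Yap knockout and control. After thinning Tead4 was in 0.471% of them in YAP5SA, 0 of 255 in Yap knockout (at most 1.44%) and 0 of 300 in control (at most 1.22%). The shares in Yap knockout and control epithelium therefore could not be told from background at this depth.

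Wwtr1 was found after thinning in 9.78% (8.39 to 11.3) of YAP5SA, 3.71% (2.53 to 5.22) of Yap knockout and 6.04% (4.17 to 8.42) of control epithelial-like cells, and in 47.9%, 17.8% and 20.0% of them without thinning. The control share again did not stand clear of macrophage-like cells, at 4.67% (2.57 to 7.71). Yap1 was found after thinning in 5.56% (4.50 to 6.77) of YAP5SA, 2.27% (1.37 to 3.53) of Yap knockout and 3.96% (2.47 to 5.99) of control cells. Without thinning these shares were 36.4%, 14.2% and 20.9%, and macrophage-like cells of the control held Yap1 in 4.0% after thinning, so depth does not allow a reading of Yap1 as present or absent cell by cell. At least 1 of the 7 genes was found after thinning in 39.7% (37.3 to 42.1) of YAP5SA, 23.2% (20.4 to 26.2) of Yap knockout and 23.4% (19.9 to 27.2) of control epithelial-like cells (87.7%, 62.8% and 59.4% without thinning). In macrophage-like cells the thinned share of any of the 7 was 13.2% in YAP5SA, 11.8% in Yap knockout and 20.7% in control.

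Outside the epithelium Wwtr1, Tead1, Tead2 and Tead3 were not higher in YAP5SA once all cells were summed. Over all gated non-epithelial cells together the ratio of YAP5SA to control was 0.983 for Yap1, 0.927 for Wwtr1, 0.901 for Tead1, 0.813 for Tead2, 0.726 for Tead3 and 1.04 for Vgll4. These sums mix classes in different parts. By class, Tead1 had an interval above 1 in cells like interstitial cells of Cajal (ratio 1.45), endothelial-like (1.24) and smooth muscle-like cells (1.12), Wwtr1 in fibroblast-like cells (1.11), and Tead2 and Tead3 in none of the 8 classes. Tead4 was the exception among the sums, at 8.21 CPM in YAP5SA against 3.34 CPM in control, a ratio of 2.46 (1.98 to 3.06), and the only one of the 7 past 2-fold in these cells, where 9.06% of all genes were at least 2-fold higher. Among the 8 non-epithelial classes the interval lay above 1 in fibroblast-like (8.77 against 2.13 CPM, 4.11-fold), smooth muscle-like (6.29 against 1.05 CPM, 6.01-fold) and erythroid-like cells (7.71 against 1.59 CPM, 4.86-fold). The share of all genes at least 2-fold higher was 7.96% in fibroblast-like, 5.59% in smooth muscle-like and 27.1% in erythroid-like cells.

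Epithelial RNA moved with that difference. The 10 broad epithelial markers together stood at 820 CPM or more in each of the 8 non-epithelial classes of YAP5SA (highest 1072 CPM, in neurons) and at 344 CPM or less in each of those of control (lowest 217 CPM, in glia). For every 1000 UMIs of these markers, Tead4 had 2.21 UMIs (2.04 to 2.39) in YAP5SA epithelial-like cells. In that library it had 9.87 (8.28 to 11.7) in fibroblast-like and 7.67 (5.18 to 11.0) in smooth muscle-like cells. Erythroid-like cells had 7.44 (4.95 to 10.8) and macrophage-like cells 4.76 (3.11 to 6.98). The control values were 0.214 (0.0784 to 0.465) in epithelial-like, 9.38 (6.61 to 12.9) in fibroblast-like and 3.93 (1.70 to 7.74) in smooth muscle-like cells. Control erythroid-like cells had 6.57 (1.79 to 16.8) and macrophage-like cells 7.44 (1.54 to 21.8). Intervals of YAP5SA and control overlapped in each of these classes outside the epithelium. The part of free RNA or of attached cells in the Tead4 UMIs outside the epithelium was not tested further. The fibroblast-like cells of YAP5SA also lay apart from those of control: 1174 and 1172 of them fell into clusters that held 6 and 10 control fibroblast-like cells.

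**Figure D3:**
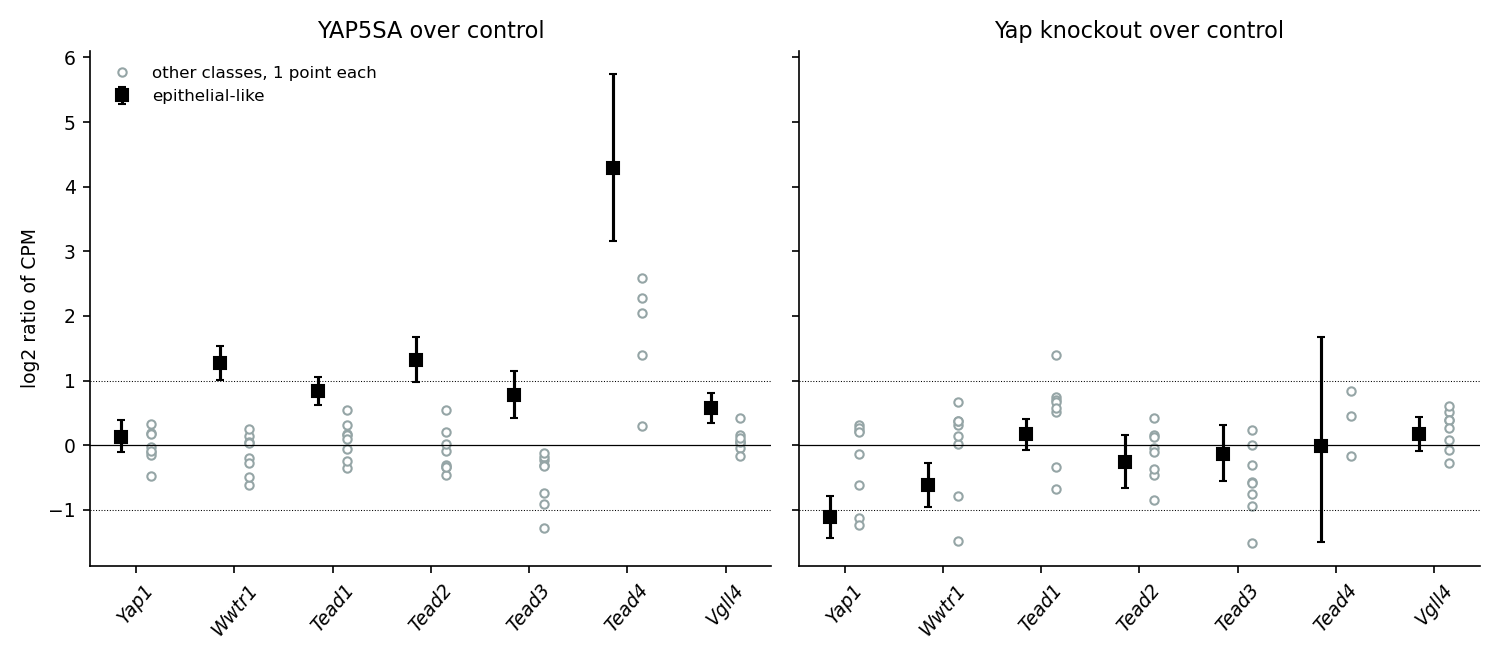
Log2 ratio of CPM to control, for YAP5SA (left) and Yap knockout (right), in epithelial-like cells (black squares, exact 95% intervals) and in 8 other classes (open circles, those with at least 10 UMIs over the libraries compared), with dotted lines at 2-fold. In YAP5SA the epithelial ratios of Wwtr1 (1.27), Tead2 (1.32) and Tead4 (4.29) lie above those of every other class drawn, and in Yap knockout Tead1 lies above 0 in most other classes.

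Tead1 stood higher outside the epithelium than within it in control too (115 against 63.5 CPM). In the Yap knockout library Tead1 differed from control more outside the epithelium than within it. Its ratio to control was 1.50 (1.43 to 1.56) over all gated non-epithelial cells, at 172 CPM in Yap knockout against 115 CPM in control. By class the interval lay above 1 in 6 of 8 and below 1 in the other 2. Endothelial-like cells stood out at 266 CPM in Yap knockout against 101 CPM in control, a 2.64-fold (2.26 to 3.10) difference, beside which 10.3% of genes were at least 2-fold higher in these cells. Fibroblast-like cells had 214 CPM in Yap knockout against 127 CPM in control, smooth muscle-like cells 203 against 124 CPM, and enteric glia-like cells 406 against 256 CPM. Macrophage-like cells went the other way, at 30.4 CPM in Yap knockout and 48.4 CPM in control, and enteric neuron-like cells lay at a ratio of 0.795 (0.648 to 0.981). The cells compared were not all alike. A smooth muscle cluster held 714 Yap knockout and 15 control cells, and another held 21 and 695. An endothelial cluster led by Ccl21a, Mmrn1 and Lyve1 held 0 Yap knockout and 18 control cells. Of 361 Yap knockout and 3061 control fibroblast-like cells, 281 and 1848 shared a cluster. Another cluster, led by Clec3b and Dlk1, held 61 and 1050 of them. The part of such differences in the Tead1 ratios was not tested.

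Malat1, a long RNA kept in the nucleus, was higher as well in several of these classes. It stood at 2246 CPM in Yap knockout against 1074 CPM in control endothelial-like cells, at 2804 against 1006 CPM in fibroblast-like cells and at 3200 against 1472 CPM in smooth muscle-like cells. In glia-like cells it was 1784 against 1602 CPM (ratio 1.11), beside a Tead1 ratio of 1.59, and in epithelial-like cells 2476 against 1227 CPM (ratio 2.02), beside a Tead1 ratio of 1.12. In the classes where Tead1 was lower, Malat1 was 839 CPM in Yap knockout against 1064 CPM in control macrophage-like cells, and 1249 against 909 CPM in neuron-like cells. In erythroid-like cells, where the Tead1 ratio was 1.49 (1.07 to 2.05), Malat1 stood at 587 against 576 CPM. The part of nuclear RNA in the Tead1 difference was not tested. Wwtr1 was 1.58-fold (1.45 to 1.73) higher in fibroblast-like cells and 1.29-fold (1.11 to 1.50) higher in glia-like cells of the Yap knockout, but 0.357 (0.234 to 0.534) of control in macrophage-like cells, where 12.7% of genes were at least 2-fold lower. Yap1 was 0.456 (0.291 to 0.724) of control in neuron-like cells, where 9.14% of genes were at least 2-fold lower, and 0.425 (0.175 to 0.892) in erythroid-like cells, where 21.5% were. It was higher in fibroblast-like (ratio 1.25, 1.06 to 1.46) and smooth muscle-like cells (1.17, 1.03 to 1.33). Yap1 over all cells outside the epithelium stood at 48.6 CPM in Yap knockout, 52.4 CPM in YAP5SA and 53.4 CPM in control.

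Across classes the genes had distinct places of highest level, which the libraries shared for the most part. Yap1 was highest in cells like interstitial cells of Cajal, the pacemaker cells of gut muscle, at 93.0 CPM in YAP5SA, 91.3 CPM in Yap knockout and 100 CPM in control. In the control the next 4 classes (fibroblast, smooth muscle, endothelial and glia) lay between 55.7 and 59.3 CPM, each within its neighbour's interval. Epithelial-like cells, at 49.8 CPM, came next, and neuron-like, erythroid-like and macrophage-like cells followed at 24.5, 23.8 and 20.6 CPM. Yap1 thus split the control classes into a high group of mesenchymal, vascular, glial and epithelial cells and a low group of neurons and blood cells.

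Wwtr1 and Tead1 were highest in enteric glia-like cells. Wwtr1 stood there at 284 CPM in YAP5SA, 441 CPM in Yap knockout and 342 CPM in control, and Tead1 at 285 CPM in YAP5SA, 406 CPM in Yap knockout and 256 CPM in control. In the control Wwtr1 was followed by the cells like interstitial cells of Cajal (275 CPM, within the interval of glia), endothelial-like (230 CPM), fibroblast-like (155 CPM) and smooth muscle-like cells (109 CPM), and epithelial-like cells at 39.8 CPM shared the lowest tier with neuron-like, macrophage-like and erythroid-like cells. Control Tead2 also led in glia-like cells (152 CPM), while Tead3 led in cells like interstitial cells of Cajal (70.8 CPM) and in smooth muscle-like cells (62.4 CPM). Tead3 differed from the other TEAD genes in endothelial-like cells, where it stood at 11.7 CPM in YAP5SA, 7.79 CPM in Yap knockout and 22.1 CPM in control. The Yap knockout ratio there was 0.352 (0.190 to 0.622), beside 7.67% of genes at least 2-fold lower in these cells, and that of YAP5SA was 0.530 (0.308 to 0.886).

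Tead4 had its highest control level among the 9 classes in endothelial-like cells, at 24.5 CPM in YAP5SA, 27.0 CPM in Yap knockout and 19.9 CPM in control, and every other control class among the 9 lay at 2.13 CPM or less. Mesothelial-like cells, which reached 50 cells in the control alone, held 18.5 CPM. The epithelium of YAP5SA was therefore the one class where the order was upset, with Tead4 above its own endothelial level. Vgll4 was highest in glia-like cells, at 128 CPM in YAP5SA, 174 CPM in Yap knockout and 145 CPM in control.

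**Figure D4:**
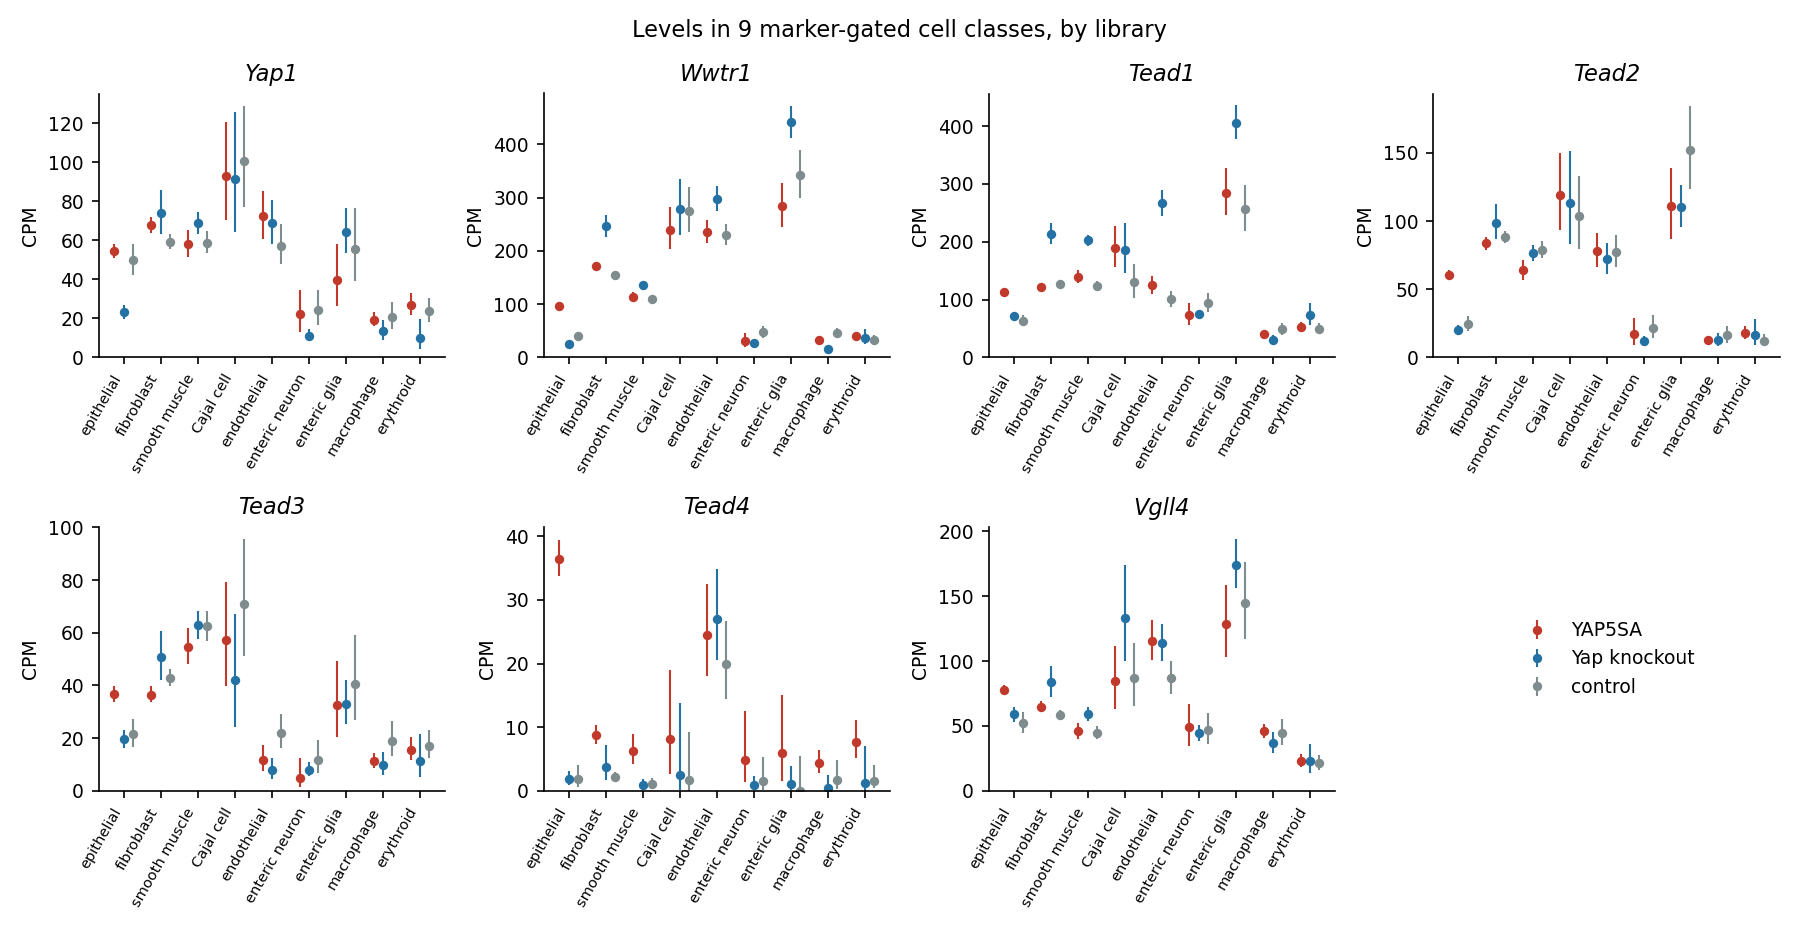
Level of each gene (CPM of the class sum) in 9 marker-gated classes of the YAP5SA, Yap knockout and control libraries, with exact 95% Poisson intervals. Wwtr1, Tead1 and Vgll4 peak in enteric glia-like cells, Yap1 in cells like interstitial cells of Cajal (Cajal cell on the axis), and Tead4 in endothelial-like cells except in YAP5SA, where it peaks in epithelial-like cells.

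Vgll4 differed among the epithelial subclasses of Yap knockout. It stood at 203 CPM (168 to 242) in 75 parietal-like cells, the acid-secreting cells of the gland, at 61.3 CPM in 255 neck and chief-like cells, at 26.4 CPM in 54 intestinal-like cells and at 22.2 CPM in 133 pit-like cells, which make surface mucus. In control it stood at 53.8 CPM in 233 neck and chief-like cells, 31.6 CPM in 26 intestinal-like cells and 22.7 CPM in 108 pit-like cells, values close to those of Yap knockout. The parietal-like level of Yap knockout thus lay far above every other subclass with at least 20 cells, and a Vgll4 UMI was found in 58.7% of these cells, at a median depth of 4603 UMIs, against 25.5% of the other epithelial-like cells of that library, at 3927 UMIs.

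Control had only 13 parietal-like cells, under the minimum of 20, and they held 7 Vgll4 UMIs, 55.0 CPM (22.1 to 113). Those UMIs lay in 3 of the 13 cells. The interval did not overlap that of the parietal-like cells of Yap knockout (168 to 242). A grouping made after these values were seen, of epithelial-like cells with at least 3 UMIs of Atp4a (the catalytic subunit of the gastric proton pump), gave 121 CPM (105 to 140) in 134 Yap knockout cells and 78.1 CPM (46.3 to 123) in 23 control cells, intervals that overlap. Cells with fewer Atp4a UMIs held 41.4 CPM of Vgll4 in Yap knockout and 50.3 CPM in control. Whether parietal-like cells of the genotypes differ in Vgll4 was not settled by so few control cells. The other 6 genes showed no such peak: Tead1 stood at 52.7 CPM in parietal-like and 64.1 CPM in pit-like cells of Yap knockout, and Wwtr1 at 28.0 CPM in parietal-like and 24.9 CPM in pit-like cells.

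Yap1 in neck and chief-like cells stood at 25.5 CPM (19.3 to 33.0) in Yap knockout and 51.3 CPM (40.9 to 63.6) in control. In pit-like cells it stood at 16.9 CPM (10.2 to 26.4) in Yap knockout and 37.8 CPM (21.2 to 62.4) in control, intervals that overlap, as do those of these subclasses within each library.

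**Figure D5:**
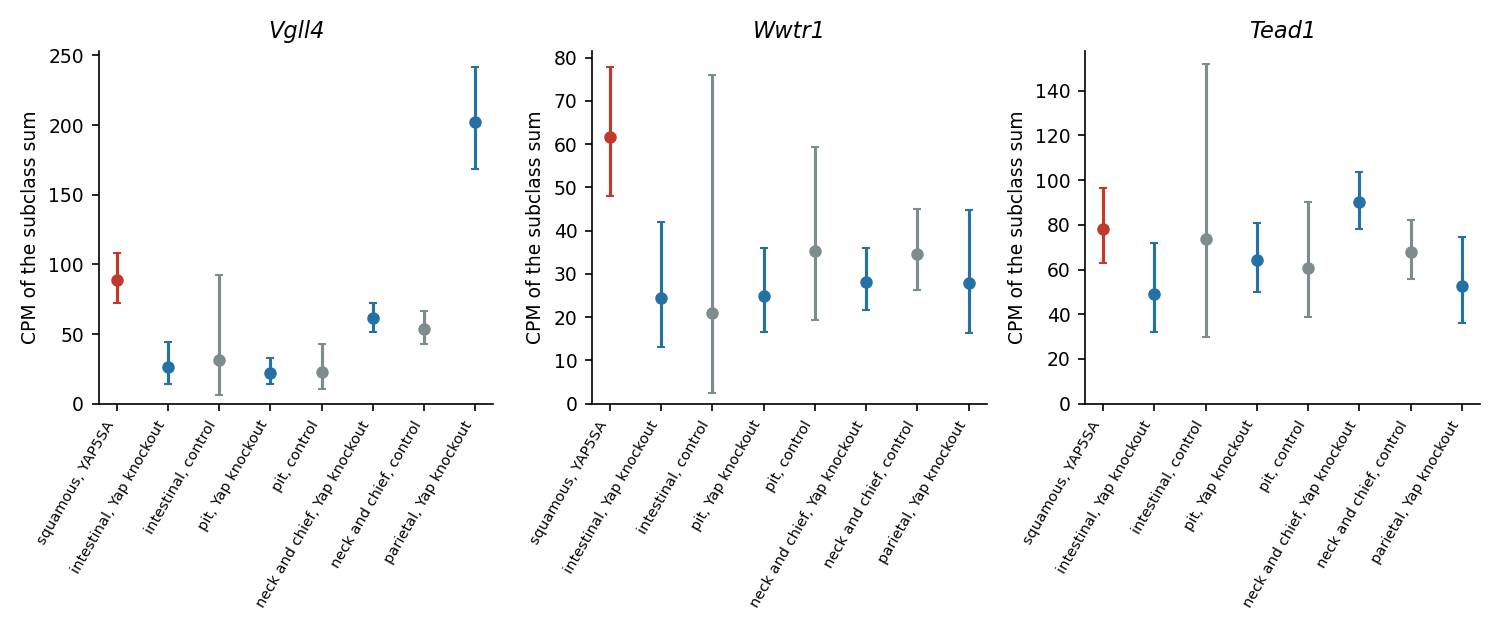
Level of Vgll4, Wwtr1 and Tead1 (CPM of the subclass sum, exact 95% Poisson intervals) in epithelial subclasses with at least 20 cells, coloured by library as named on the axis. Vgll4 in parietal-like cells of Yap knockout, at 203 CPM, lies above all other points, and Wwtr1 and Tead1 show no such point.

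Within the YAP5SA epithelium, 1525 of 1656 cells matched no subclass and 90 were squamous-like, with markers of the stratified forestomach or oesophagus. The squamous-like cells had less Tead2 (29.9 against 62.6 CPM in all other epithelial-like cells of that library, ratio 0.478, 0.329 to 0.672), less Wwtr1 (61.6 against 98.4 CPM, ratio 0.626), less Tead1 (78.3 against 116 CPM, ratio 0.678) and less Yap1 (40.5 against 55.6 CPM, ratio 0.728, 0.529 to 0.979). Tead4 was 29.0 against 37.0 CPM (ratio 0.784, 0.535 to 1.11), and Tead3 and Vgll4 also had intervals that held 1. Tead4 thus did not differ beyond counting error between these kinds of YAP5SA epithelial cell. Dividing cells, those with UMIs of at least 3 of 8 cell-cycle markers, held 33.3 CPM of Tead4 against 40.0 CPM in the others (ratio 0.833, 0.710 to 0.978), and 40.2 CPM of Tead3 against 32.9 CPM (ratio 1.22, 1.04 to 1.44). In Yap knockout Tead3 lay the other way, at 13.7 CPM in dividing against 22.6 CPM in other cells (ratio 0.607, 0.395 to 0.909). The other 5 genes differed by less than 1.06-fold between dividing and other YAP5SA cells, with intervals that held 1. Among control cells Vgll4 was 67.0 CPM in dividing against 45.0 CPM in other cells (ratio 1.49, 1.08 to 2.04).

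YAP5SA epithelial-like cells that held a UMI of a YAP target were set against those with none. In the 393 cells with Ankrd1, a muscle and wound response gene that YAP and TEAD are known to drive, Wwtr1 was 118 CPM against 85.1 CPM in the 1263 without it (ratio 1.39, 1.25 to 1.53) and Vgll4 was 93.7 against 69.7 CPM (ratio 1.34, 1.20 to 1.50). Tead4 was 39.8 against 34.9 CPM (ratio 1.14, 0.965 to 1.35), and Yap1 56.6 against 53.6 CPM (ratio 1.06, 0.920 to 1.21). With Ccn2, which encodes a matrix protein, 770 cells with a UMI and 886 without gave 105 and 80.0 CPM of Wwtr1 (ratio 1.31, 1.18 to 1.46) and 36.6 and 36.4 CPM of Tead4 (ratio 1.00, 0.850 to 1.19). Tead1 was also higher with either target (ratio 1.15, 1.05 to 1.27, with Ankrd1 and 1.17, 1.06 to 1.29, with Ccn2), as was Vgll4 with Ccn2 (1.14, 1.01 to 1.28). Tead2 turned, at 1.18 (1.04 to 1.34) with Ankrd1 and 0.872 (0.768 to 0.991) with Ccn2. Wwtr1, Tead1 and Vgll4 were thus higher in cells with a UMI of either target, and Yap1, Tead3 and Tead4 did not differ beyond counting error. Cells with a UMI were deeper (a median of 11222 UMIs for Ankrd1 and 11318.5 for Ccn2), and the part of depth was not tested.

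Other genes of the pathway were read from 3 lists. Of 24 YAP and TEAD targets, 14 were at least 2-fold higher and 2 at least 2-fold lower in YAP5SA epithelium, against 16.3% and 13.3% of all genes. Their median log2 ratio was 1.26, and that of all genes 0.01. The highest were Ankrd1 (127 CPM against 0 UMIs in control, at least 136-fold higher against a floor of 3 UMIs over the class sum), Ccn2 (192 against 12.8 CPM) and Ajuba (72.9 against 7.47 CPM), which encodes a LIM protein that holds LATS kinases back. The lowest were Nt5e (2.92 against 9.64 CPM), Foxf2 (2.57 against 5.60 CPM) and Dock5 (9.63 against 15.9 CPM). In Yap knockout 0 of 23 targets measured were at least 2-fold higher, where 9.96% of all genes were, and 2 were at least 2-fold lower, a share near the 7.28% of all genes. The median log2 ratio was -0.40, beside 0.02 over all genes. The lowest were the receptor kinase gene Axl (14.2 against 35.8 CPM), Ajuba (3.15 against 7.47 CPM) and Ptpn14 (23.5 against 45.1 CPM), a phosphatase gene whose product binds YAP. The highest was Ccn2, at 19.7 against 12.8 CPM.

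Of 27 kinases, scaffolds and upstream regulators of the Hippo pathway, 9 were at least 2-fold higher and 0 at least 2-fold lower in YAP5SA epithelium, where 16.3% and 13.3% of all genes were. The median log2 ratio was 0.22, beside 0.01 over all genes, and Lats2, Amotl2, Ajuba and Ptpn14 stand on both lists. The highest were Ajuba, Wwc2 (176 against 45.1 CPM) and Wtip (115 against 35.8 CPM), and the lowest Taok3 (43.0 against 74.3 CPM), Dchs1 (14.9 against 25.5 CPM) and Nf2 (22.2 against 33.3 CPM). In Yap knockout Ajuba was the only one past 2-fold, and Sav1, the scaffold of the upstream kinases, was highest at 14.0 against 7.78 CPM.

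Of the other partners of TEAD and YAP, 16 were measured in YAP5SA, of which 5 were at least 2-fold higher and 4 at least 2-fold lower, against 16.3% and 13.3% of all genes. Vgll1, another cofactor that binds TEAD, had 89 UMIs (5.20 CPM) in YAP5SA and 0 in control epithelium, at least 5.57-fold higher against the floor of 3 UMIs, and no row in the Yap knockout library. Erbb4 stood at 24.8 against 4.04 CPM and Runx2 at 7.36 against 1.87 CPM. The lowest were Trp73 (0.876 against 2.49 CPM), Fosl1 (14.1 against 38.6 CPM) and Zeb1 (11.3 against 23.6 CPM). Fosl1 encodes an AP-1 factor known to act with TEAD. In Yap knockout 15 were measured, of which 2 (Runx2 and Runx3) were at least 2-fold higher and 1 (Trp73) at least 2-fold lower, against 9.96% and 7.28% of all genes. The intervals of these 3 held 1. Fosl1 in Yap knockout lay above control, at 73.4 against 38.6 CPM.

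The pattern of each gene over cell classes was compared with that of all others as the Pearson correlation of log2(CPM + 5) over 32 class sums of at least 50 cells, among 9751 genes with a mean of at least 10 CPM. The sums share 3 libraries and differ in depth and free RNA, so the values describe these sums only. Wwtr1 was most like Amotl1 (r = 0.955), which encodes an angiomotin that binds YAP and TAZ, then Timp3 (0.947) and Tead2 (0.947). Tead2 was in turn most like Wwtr1, and Tead1 was most like Ltbp1 (0.923), Acvr1 (0.918) and Wwtr1 (0.915). Yap1 was most like Igf2r (0.919), Gpc4 (0.914) and Tcf7l1 (0.910), and its r with Wwtr1 was 0.851. Tead3 was most like Fzd2 (0.910), Flnc (0.902) and Gli3 (0.881). Vgll4 was most like Dnajc1 (0.903), Cnot6 (0.899) and Strn3 (0.888). Tead4 had r between -0.0434 (Tead3) and 0.381 (Yap1) with the other 6. Its nearest genes were Lmcd1 (0.822), AU021092 (0.819) and Arhgap29 (0.813). The mean of Tead4 over the sums was 6.76 CPM, under the 10 CPM asked of the genes compared and near the 5 CPM added. Several sums held few Tead4 UMIs (0 in control glia-like, 1 in Yap knockout macrophage-like cells). The part of counting error in its low r was not tested.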

How the data were processed

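Single-cell RNA was measured in 3 hindstomach libraries, 1 per genotype. The authors deposited a UMI count for every gene of every cell. The file headers name PISA 1.0, the submitters' processing notes name STAR and GRCm39, and no cell had under 1000 UMIs. The libraries held 9439 YAP5SA, 5739 Yap knockout and 7692 control cells with 65843658, 40857358 and 48910624 UMIs in that order. The sources used here do not say whether counting used strand, and the 3′ end of Tead2 overlaps that of Cd37 on the other strand.

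Cells with at least 500 genes and at most 20% mitochondrial UMIs were kept. Scrublet (scanpy 1.11.5, expected rate 0.06) called 0 doublets, so the cells with the top 6% of scores were removed. A cell took the class with the highest mean marker score (at least 0.2, leading the next class by at least 0.1, at least 3 markers detected), and the epithelial score was the best of the broad and 6 subclass lists. These thresholds were set after the cells had been seen. Of cells led by the epithelial score, 55 YAP5SA, 159 Yap knockout and 104 control cells missed the margin by less than 0.05. UMIs were summed per class and library. Ratios have exact conditional intervals, levels exact Poisson and shares Clopper-Pearson intervals, at 95%, computed in Python 3.11.15, scipy 1.17.1 and numpy 2.4.6, and the conditional interval was tested on simulated data. A fold of 2 or more was called, among genes with at least 10 UMIs over the cells compared.

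The 7 genes, marker lists and pathway lists were chosen with earlier results of these data known. The genes named are the 7, up to 3 genes most like each, and of each pathway list up to 3 genes at either end of the ratios among those with at least 10 UMIs. TMM factors came from edgeR 4.0.16, and figures from matplotlib 3.10.9.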

Additional observations from a re-analysis of the deposited data

Results flagged for a closer look

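In 4 of the 7 genes YAP5SA lay above control in epithelial-like cells and below it in the summed non-epithelial cells, with intervals that left out 1. The ratios to control were 2.41 and 0.927 for Wwtr1 and 1.78 and 0.901 for Tead1. They were 2.49 and 0.813 for Tead2 and 1.71 and 0.726 for Tead3. Yap1 turned too, at 1.10 and 0.983, but both of its intervals held 1. The share of all genes that turned between these sums was not counted. For Wwtr1 the ratio of Yap knockout to control also turned, at 0.650 in epithelial-like and 1.08 in non-epithelial cells. The non-epithelial sums mix classes in different parts, and Tead1 and Wwtr1 lay above 1 in some of those classes. With 1 library per genotype the difference between the epithelial and the other cells was not tested.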

How the results depend on the processing

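No paired analysis was possible because each genotype has 1 library, and for the same reason no library could be left out. The 14 epithelial log2 ratios stayed within their counting intervals under 9 alternatives (at most 10% mitochondrial UMIs, predicted doublets kept, a stricter gate, Leiden clusters, cells with at least 2000 UMIs, TMM factors, genes with at least 10 UMIs, no squamous or intestinal subclasses, and, chosen after seeing the data, a gate without subclass markers). Without cells holding a UMI of a cell-cycle marker, the YAP5SA values moved to 0.42 for Yap1, 0.94 for Tead2 and 0.24 for Tead3. With the mean of per-cell CPM they moved to 0.85 for Vgll4 in YAP5SA, and in Yap knockout to -0.25 for Wwtr1, 0.63 for Tead3 and 0.52 for Vgll4. With the non-epithelial profile subtracted, scaled on collagen genes, they moved to 1.88 for Tead1 and 2.09 for Tead3 in YAP5SA, and to -1.75 for Yap1 and 0.67 for Tead3 in Yap knockout, while Wwtr1 and Tead2 gave no ratio because their control levels fell below 0. That scaling allowed up to 27.0% of the YAP5SA, 25.8% of the Yap knockout and 38.3% of the control epithelial sum to be non-epithelial RNA. The cause of these moves was not tested. Shares of cells moved with depth in 21 of 21 cases without thinning and in 16 of 21 at 2000 UMIs, and class levels moved in 13 of 189 cases under the stricter gate and in 1 of 189 with doublets kept. Depth limits Tead4 in control and Yap knockout epithelium, read from 6 and 13 UMIs.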
